A study of Mus musculus with 12 samples.

Results

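The genes described here carry glucose into T cells, carry lactate out of them, or respond to glucose inside them. They were taken by name from the deposited count table and number 9 of 39179 gene IDs: the glucose transporter genes Slc2a1, Slc2a3 and Slc2a6, the monocarboxylate transporter genes Slc16a1 and Slc16a3, their chaperone gene Bsg, and the arrestin-domain genes Txnip, Arrdc3 and Arrdc4. RNA was sequenced from Th1 cells, the T helper cells that secrete interferon-gamma, of mice on a C57BL/6 background that were wild-type (WT) or LDHA-KO, lacking lactate dehydrogenase A. There were 2 libraries per genotype; the 4 H3K9Ac and 4 input samples of the same series were not analysed here. All 4 RNA libraries came from naive CD4+ T cells activated on plates with anti-CD3 (5 µg/ml) and with soluble anti-CD28 (2 µg/ml) for 3 days. Their medium held 10% serum, 2 mM glutamine, 1 mM pyruvate, 100 U/ml IL-2, 10 ng/ml IL-12 and 10 µg/ml of an antibody to IL-4. Both genotypes were then restimulated for 4 h with 50 ng/ml PMA, 1 µM ionomycin and GolgiStop, so the controls carry every treatment that the LDHA-KO cells carry. The labels do not say how or in which cells the gene was deleted, how old the mice were, how many were used, or whether libraries came from separate animals. P-values thus reflect variation among the libraries alone, and that variation may be technical.

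Glucose crosses the plasma membrane through facilitative carriers of the SLC2 (GLUT) family, and activated T cells are known to raise their glucose uptake. Lactate, the product of lactate dehydrogenase, leaves with a proton through the monocarboxylate carriers MCT1 and MCT4, which need the membrane protein basigin to reach the cell surface. TXNIP and its relatives ARRDC3 and ARRDC4 are alpha-arrestins, adaptors that lead membrane proteins into the cell; TXNIP binds thioredoxin and promotes the internalisation of GLUT1. Transcription of Txnip and Arrdc4 is classically driven by MondoA (gene Mlxip) with its partner MLX, which respond to glucose 6-phosphate and bind paired E-box elements.

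Library totals were 919741 to 1293178 counts. One count was worth 0.765 to 1.13 CPM, the count scaled to a common library size by edgeR's TMM method, and a count of 0 allows up to 3 counts, or 2.32 to 3.26 CPM by library total. Such limits and the counting intervals given here cover counting error only. The deleted gene, Ldha, had 1055 and 1006 counts in WT against 42 and 53 in LDHA-KO, so both LDHA-KO libraries fit their label, with a remaining signal of 47.1 ± 0.577 CPM (SD, n = 2). T cell markers summed to 1454 and 1509 CPM in WT against 1252 and 1260 CPM in LDHA-KO, with 1 of the 8 called higher and 3 lower, and the 4 Th1 markers to 1933 to 1939 CPM against 604 to 626 CPM, with 3 called lower. Of other cells, the 3 natural killer markers were at 0, the 2 CD8 T cell markers summed to 1.58 to 5.36 CPM in WT against 3.39 to 7.92 CPM in LDHA-KO, and the 5 B cell markers, with Cd79b at 0, to 7.91 to 10.7 CPM against 4.52 to 8.80 CPM. Of the erythroid markers, 4 of 5 were at 0, and Alas2 was called lower, with a sum of 14.2 to 16.1 CPM in WT against 1.13 to 6.16 CPM in LDHA-KO. Alas2 lies within the RefSeq span of Apex2 (23206 bp shared), which had 24 and 24 counts in WT against 5 and 12 in LDHA-KO. Reads in the shared stretch could belong to either gene. The sum of the macrophage and dendritic cell list, 332 to 333 CPM in WT against 397 to 411 CPM in LDHA-KO, came nearly all from Csf1r, with 348 to 462 counts per library, which was called higher (log2 fold change 0.29, edgeR's adjusted p = 0.00500). Csf1r overlaps the noncoding genes Gm52352, by 8247 bp, and Mir6983. Of the other 4 genes of that list, Lyz2 and Adgre1 were at 0, and Itgax and Cd68 were too low to test. The part of these differences in the results was not tested.

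Which strand was counted is not given in the sources used here. Pairs of a protein-coding gene and a long noncoding RNA gene that overlap in RefSeq were taken where their summed counts reached 100. Among 371 such pairs on opposite strands, the noncoding gene held more counts in 209 (56.3%), with 232396 counts in all against 126536 for the coding genes. Of only 12 such pairs on the same strand, it held more in 4 (33.3%), with 4207 counts in all against 2924. mt-Nd6, the protein-coding gene on the light strand of mitochondrial DNA, had 736, 868, 1304 and 1902 counts in WT replicates 1 and 2 and LDHA-KO replicates 1 and 2. The heavy-strand gene mt-Cytb, known as an abundant transcript, had 198, 212, 210 and 307. Thus mt-Nd6 was 3.72 and 4.09 times as high in WT and 6.21 and 6.195 times as high in LDHA-KO. The genotypes did not overlap in this ratio, for a cause that was not tested. A count on the strand opposite to the transcripts would give both orders, noncoding over coding and mt-Nd6 over mt-Cytb. The first order also held for the totals of the same-strand pairs. Whether the library kit marked strand is not given. If the strand opposite to that of the transcripts was counted, a value below is that of antisense reads over the named gene. This bears on all 9 genes and most on Txnip, which lies wholly inside another gene.

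Between the genotypes, 4 of the 9 genes were higher in LDHA-KO (Slc2a3, Bsg, Txnip and Arrdc4), 1 was lower (Slc2a6) and 4 were not called (Slc2a1, Slc16a1, Slc16a3 and Arrdc3). A call is an adjusted p under 0.05 in edgeR's quasi-likelihood test, fitted and adjusted over all 9914 genes tested, and all 9 genes passed the filter on low counts. The background was 31.0% of all tested genes called, 15.6% higher and 15.4% lower. The median log2 fold change was 0.24 over the 9 genes and -0.0081 over all tested genes. For the same 5 called genes the libraries of the genotypes did not overlap, as for 64.3% of all tested genes. Only Slc2a3 and Bsg were called under each of the 10 alternative settings tried for them. The other 3 calls rest on fewer counts. For Slc2a3, Slc2a6, Txnip and Arrdc4 the interval of the fit was narrower than the exact counting interval of the summed counts. For Bsg it was wider. Intervals and p-values of the fit thus need not contain all of the counting error. In bulk RNA, fewer cells that express a gene and less RNA per cell cannot be told apart, which holds for each value below.

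**Figure D1:**
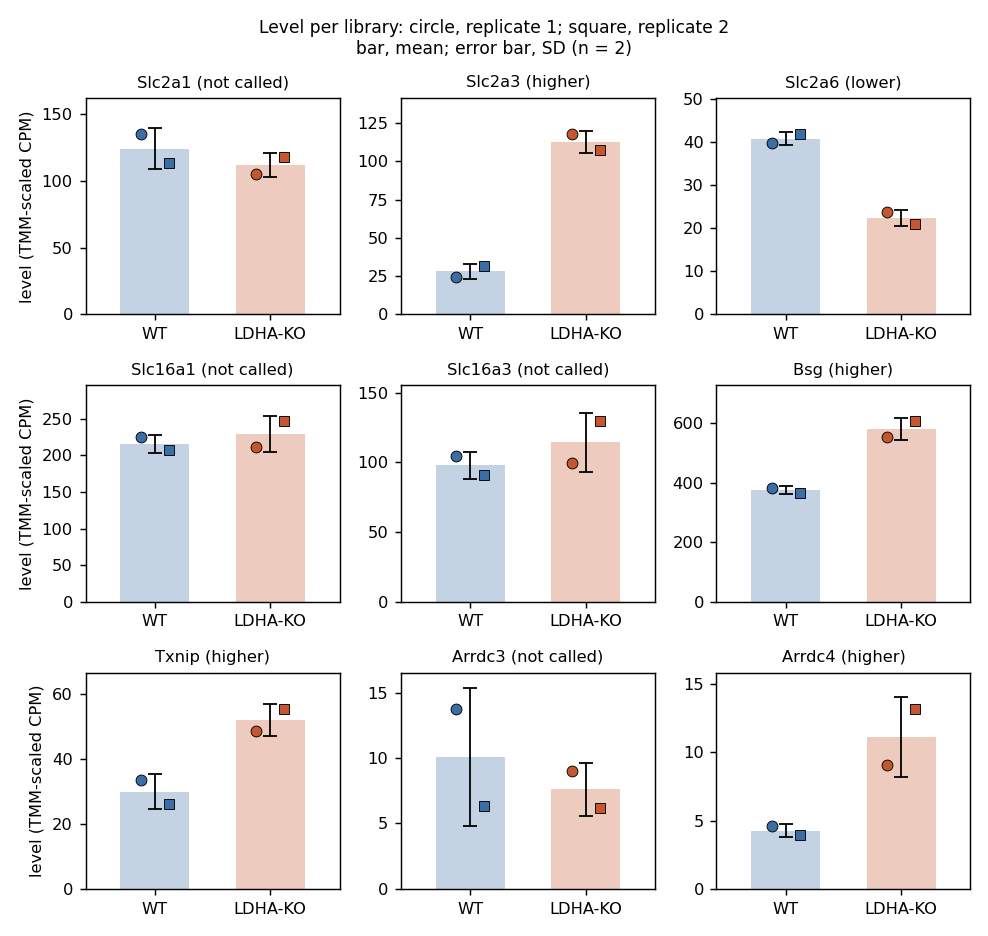
Level of each of the 9 genes in each library, in TMM-scaled CPM on axes that start at 0 and differ between panels; bars are means and error bars SDs of 2 libraries per genotype. The LDHA-KO libraries lie above both WT libraries for Slc2a3, Bsg, Txnip and Arrdc4, below both for Slc2a6, and overlap them for the other 4 genes.

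The glucose transporter genes went in different directions. Slc2a3 encodes GLUT3, a high-affinity glucose carrier best known from neurons. It lies at chromosome 6, 122727809 to 122802363 (GRCm38.p6; ENSMUSG00000003153), and overlaps the pseudogene Gm4482. It had 32 and 40 counts in WT (24.5 and 31.6 CPM) against 104 and 122 in the LDHA-KO libraries (118 and 107 CPM). Both LDHA-KO libraries stood well above both WT libraries, a 3.99-fold rise (95% interval of the fit 3.08 to 5.16; log2 fold change 2.00, SE 0.18, edgeR's adjusted p = 8.93e-12). The exact 95% counting interval of the ratio of summed counts was slightly wider, 3.05 to 5.28. Slc2a3 was the 98th gene of all tested when ordered by p. Leaving out any single library moved its log2 fold change only between 1.82 and 2.19.

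Slc2a1 encodes GLUT1, the carrier that activated T cells are known to depend on for glucose uptake (chromosome 4, 119108745 to 119137330; ENSMUSG00000028645). Its level was 135 and 113 CPM in WT against 105 and 118 CPM in LDHA-KO, from 93 to 176 counts per library. The genotypes overlapped and the gene was not called (log2 fold change -0.14, 95% interval -0.41 to 0.12, edgeR's adjusted p = 0.446), and the interval runs from 0.752 to 1.09 as a ratio of LDHA-KO to WT. Slc2a1 overlaps the noncoding genes Gm12867, with 3 to 9 counts per library, and Gm52706.

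Slc2a6 encodes GLUT6, a carrier of intracellular membranes that is found in leukocytes (chromosome 2, 27021363 to 27028000; ENSMUSG00000036067; no RefSeq overlap). It had 52 and 53 counts in WT against 21 and 24 in LDHA-KO, or 39.8 and 41.9 against 23.7 and 21.1 CPM. Here both LDHA-KO libraries were lower, a 1.83-fold fall (log2 fold change -0.87, SE 0.24, 95% interval -1.36 to -0.38, edgeR's adjusted p = 0.00476). As a ratio of LDHA-KO to WT, this interval ran from 0.390 to 0.767, and the exact 95% counting interval from 0.376 to 0.781. The call was lost without LDHA-KO replicate 2 (-0.77, adjusted p = 0.0869) and in DESeq2 (-0.86, adjusted p = 0.196). The direction was the same in each.

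Ratios of gene counts inside a library do not depend on the scaling between libraries. For every count of Slc2a1 there were 0.182 and 0.280 counts of Slc2a3 in WT and 1.12 and 0.910 in LDHA-KO. The exact 95% counting intervals, 0.121 to 0.266 and 0.192 to 0.400 against 0.837 to 1.50 and 0.707 to 1.17, did not overlap between genotypes, and the mean ratio was 4.40 times as high in LDHA-KO. The ratio of Slc2a6 to Slc2a1 was 0.295 and 0.371 in WT and 0.226 and 0.179 in LDHA-KO, with intervals that overlapped between genotypes. Transcript lengths were not used, so a ratio compares genotypes and does not rank the genes by transcript number. The summed level of Slc2a1, Slc2a3 and Slc2a6 was 199 and 187 CPM in WT against 246 and 247 CPM in LDHA-KO.

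**Figure D2:**
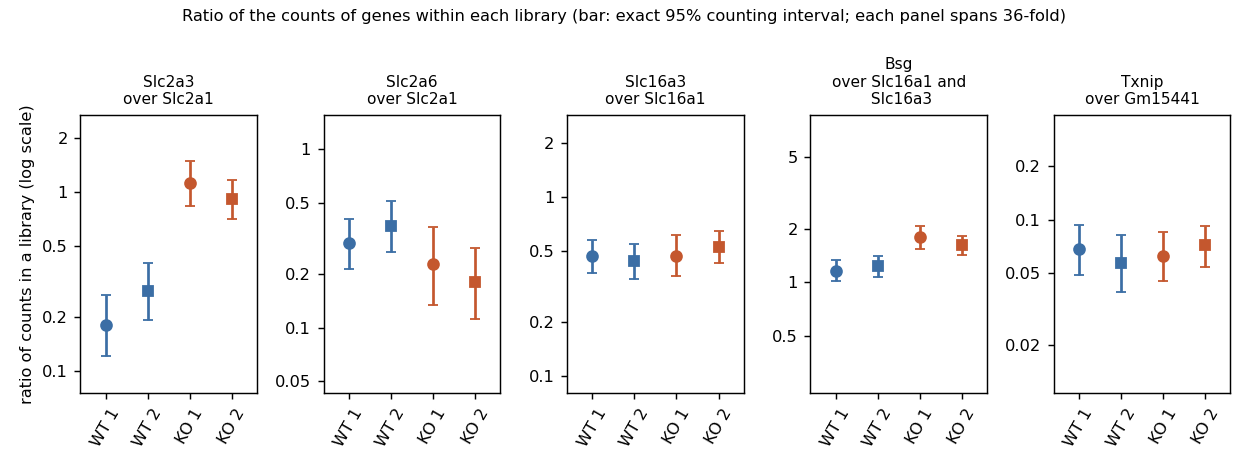
Ratio of the counts of named genes within each library (log axis), with exact 95% counting intervals. The ratio of Slc2a3 to Slc2a1 and that of Bsg to Slc16a1 plus Slc16a3 are higher in both LDHA-KO libraries than in both WT libraries, while the ratio of Txnip to Gm15441 stays between 0.0575 and 0.0716.

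Of the lactate carriers, neither transporter gene was called, and their shared chaperone gene was higher. Slc16a1 encodes MCT1, which moves lactate and pyruvate in either direction (chromosome 3, 104638664 to 104658462; ENSMUSG00000032902; no RefSeq overlap). Its level was 225 and 207 CPM in WT against 211 and 247 CPM in LDHA-KO, and the libraries interleaved (log2 fold change 0.093, 95% interval -0.11 to 0.30, edgeR's adjusted p = 0.523). The sign turned without LDHA-KO replicate 2 (-0.024). Slc16a3 encodes MCT4, the low-affinity lactate exporter of glycolytic cells (chromosome 11, 120948484 to 120959000; ENSMUSG00000025161). It stood at 105 and 90.9 CPM in WT against 99.5 and 129 CPM in LDHA-KO, again overlapping (log2 fold change 0.24, 95% interval -0.041 to 0.53, edgeR's adjusted p = 0.196). Without LDHA-KO replicate 1 its value was 0.41 (adjusted p = 0.0549) and without LDHA-KO replicate 2 it was 0.030. Slc16a3 overlaps Csnk1d by 1292 bp, a kinase gene that was called higher (0.46, adjusted p = 0.000270; 0.34 and not called without LDHA-KO replicate 2), so reads in the shared stretch could belong to either gene. With all libraries, the 95% interval of the fit ended at a 1.23-fold rise for Slc16a1 and a 1.44-fold rise for Slc16a3. These limits cover variation among these libraries alone and hold for this fit only.

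Bsg encodes basigin (CD147), the single-pass glycoprotein that escorts MCT1 and MCT4 to the surface (chromosome 10, 79704358 to 79711979; ENSMUSG00000023175; no RefSeq overlap). With 463 to 689 counts per library it was the most deeply counted of the 9 genes. It rose from 384 and 366 CPM in WT to 555 and 607 CPM in LDHA-KO, 1.55-fold (95% interval 1.40 to 1.73; log2 fold change 0.63, SE 0.075, edgeR's adjusted p = 6.17e-09). The gap between genotypes exceeded the distance between libraries of a genotype several times over, with means of 375 ± 12.7 and 581 ± 36.5 CPM (SD, n = 2 each). Per count of Slc16a1 and Slc16a3 together there were 1.16 and 1.23 counts of Bsg in WT and 1.79 and 1.61 in LDHA-KO, 1.42 times as many on average, and the counting intervals of the genotypes did not overlap. Embigin (Emb), the other chaperone of these carriers, singled out after its values were seen, was at 101 ± 0.408 CPM in WT against 101 ± 0.170 CPM in LDHA-KO (SD; n = 2 per genotype; log2 fold change -0.0034, 95% interval -0.28 to 0.27). The ratio of Bsg to Emb was accordingly 3.65 to 3.80 in WT and 5.52 to 6.04 in LDHA-KO.

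**Figure D3:**
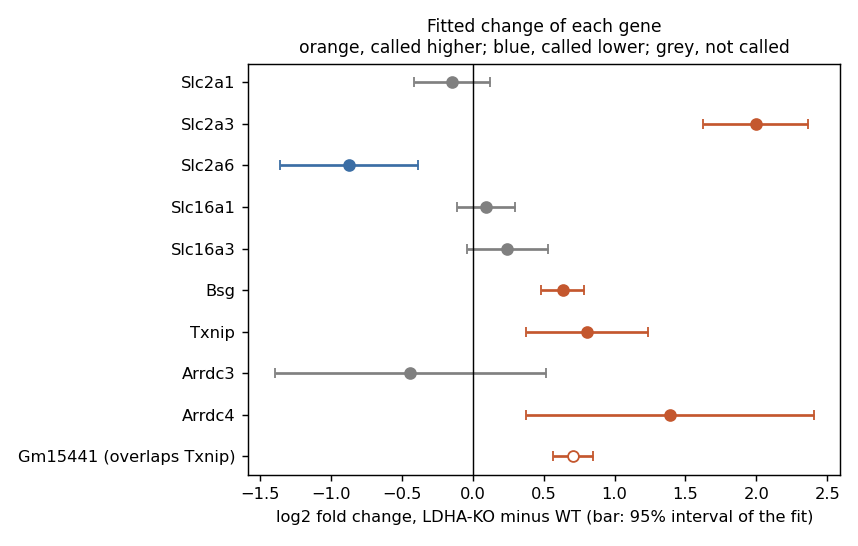
Fitted log2 fold change of each gene, LDHA-KO minus WT, with its 95% interval; filled points are the 9 genes and the open point is Gm15441, the noncoding gene over Txnip. The interval of Slc2a3 (1.62 to 2.37) lies above those of Bsg and Slc2a1, and that of Arrdc3 (-1.39 to 0.51) is wide because it had 7 to 18 counts per library.

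The alpha-arrestin genes were few in counts. Txnip (chromosome 3, 96557957 to 96561857; ENSMUSG00000038393) had 44 and 33 counts in WT against 43 and 63 in LDHA-KO, or 33.7 and 26.1 against 48.6 and 55.5 CPM. Both LDHA-KO libraries were higher, by 1.75-fold on the fitted scale (95% interval 1.30 to 2.36; log2 fold change 0.81, SE 0.21, edgeR's adjusted p = 0.00321). The call was lost without WT replicate 2 (0.64, adjusted p = 0.0515), without LDHA-KO replicate 2 (0.71, adjusted p = 0.0690) and in DESeq2 (0.81, adjusted p = 0.157).

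Arrdc4, a close relative of Txnip and likewise a glucose-induced gene (chromosome 7, 68736994 to 68749238; ENSMUSG00000042659; no RefSeq overlap), had 6 and 5 counts in WT against 8 and 15 in LDHA-KO. On the CPM scale these are 4.59 and 3.95 against 9.04 and 13.2. It was called higher (log2 fold change 1.39, SE 0.50, edgeR's adjusted p = 0.0310), but summed counts of 11 and 23 give a ratio of 2.66 with a counting interval of 1.25 to 6.05. The call was lost whichever library was left out: 1.50 without WT replicate 1, 1.29 without WT replicate 2, 1.62 without LDHA-KO replicate 1 and 1.07 without LDHA-KO replicate 2, and DESeq2 gave no adjusted p.

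Arrdc3, which is known for drawing adrenergic receptors into endosomes (chromosome 13, 80883384 to 80896042; ENSMUSG00000074794; no RefSeq overlap), had 18 and 8 counts in WT against 8 and 7 in LDHA-KO. The WT libraries, at 13.8 and 6.33 CPM, enclosed 1 of the LDHA-KO values, 9.04 CPM, and the other was 6.16 CPM. It was not called (log2 fold change -0.44, SE 0.47, 95% interval -1.39 to 0.51, edgeR's adjusted p = 0.520), and without WT replicate 1 the sign turned (0.23). No change of this gene was detected, and the interval as a ratio of LDHA-KO to WT runs from 0.380 to 1.43.

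The whole of Txnip lies within the noncoding gene Gm15441 (chromosome 3, 96555768 to 96566801; ENSMUSG00000074398), known as an antisense transcript of Txnip and singled out here after its values were seen. Gm15441 had 645 and 574 counts in WT against 684 and 880 in LDHA-KO, between 14.0 and 17.4 times the Txnip count of the same library. Its level rose from 494 and 454 CPM to 773 and 775 CPM (log2 fold change 0.71, SE 0.069, edgeR's adjusted p = 4.12e-11), with no overlap of the genotypes, and it was called in all 10 alternatives. The ratio of Txnip to Gm15441 was 0.0682 and 0.0575 in WT and 0.0629 and 0.0716 in LDHA-KO, overlapping between genotypes. If the opposite strand was counted, the Gm15441 row holds the reads of Txnip, and the Txnip row reads antisense to it. On either row the LDHA-KO libraries were the higher ones, but the Txnip call was lost in 3 of 10 alternatives. Whether the rows are independent of each other was not tested.

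Promoter sequence is shown for 4 genes, chosen as follows. Txnip and Arrdc4 are the classical targets of the glucose-sensing factors. They were called higher here, with calls lost in 3 of 10 and 5 of 9 alternatives. Slc2a6 is the gene of the set that was called lower, with its call lost in 2 of 10. Slc16a1 carries an E-box and was not called. RefSeq windows (GRCm38.p6) matched 7 of the 9 genes; Slc2a3 and Bsg had none. The 250 bases before the transcript start are printed 5′ to 3′ on the strand of the gene. Capitals mark CCAAT boxes, E-boxes (CACGTG) and both parts of a paired element (CACGNG, 5 bases of any kind, CACGNG), each on either strand.

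Txnip, chr3:96557707-96557956, plus strand: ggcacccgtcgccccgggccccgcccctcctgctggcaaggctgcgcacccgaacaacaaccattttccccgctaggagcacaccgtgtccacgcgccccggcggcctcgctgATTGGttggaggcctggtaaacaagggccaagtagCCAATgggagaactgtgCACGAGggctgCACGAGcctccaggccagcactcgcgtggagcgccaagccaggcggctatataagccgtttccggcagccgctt
Arrdc4, chr7:68749239-68749488, minus strand: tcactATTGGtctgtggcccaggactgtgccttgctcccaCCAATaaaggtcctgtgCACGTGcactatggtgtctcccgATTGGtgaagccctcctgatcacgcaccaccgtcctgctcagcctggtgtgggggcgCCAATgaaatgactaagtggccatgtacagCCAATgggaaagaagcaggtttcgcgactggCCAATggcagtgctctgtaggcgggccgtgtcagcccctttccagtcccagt
Slc16a1, chr3:104638414-104638663, plus strand: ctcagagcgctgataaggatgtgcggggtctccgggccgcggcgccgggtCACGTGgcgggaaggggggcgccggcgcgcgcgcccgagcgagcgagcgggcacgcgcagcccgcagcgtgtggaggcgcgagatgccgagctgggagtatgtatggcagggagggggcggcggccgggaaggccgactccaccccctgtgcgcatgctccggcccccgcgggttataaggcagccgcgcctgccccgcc
Slc2a6, chr2:27027999-27028248, minus strand: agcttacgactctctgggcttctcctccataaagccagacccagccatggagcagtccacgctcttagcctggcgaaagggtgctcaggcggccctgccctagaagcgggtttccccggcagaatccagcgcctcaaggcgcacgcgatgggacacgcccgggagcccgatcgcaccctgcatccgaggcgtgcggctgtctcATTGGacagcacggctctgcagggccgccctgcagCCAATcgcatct

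In the Txnip sequence the paired element covers bases -85 to -69 before the start, with a CCAAT box at -102 to -98 and another, on the other strand, at -137 to -133. The paired element was found in 15 of 32851 windows of this length (0.0457%), and among the 7 genes in Txnip alone. Only this spelling and spacing were searched, so a looser paired element in another gene, Arrdc4 included, would be missed. Arrdc4 holds an E-box at -193 to -188 and 6 CCAAT boxes on both strands. An E-box was present in 6.02% of all windows, and of the 7 genes in Slc16a1 and Arrdc4. At least 1 CCAAT box was present in 33.8% of all windows and in 4 of the 7 genes, Slc2a6, Txnip, Arrdc3 and Arrdc4. The hypoxia response core is ACGTG or GCGTG, and ACGTG also lies inside each E-box. ACGTG was present in 5 of the 7 genes and 16.6% of all windows, and GCGTG in 6 of the 7 and 28.2%. The share of all windows counts each window, while a gene counts if any of its windows holds the motif; Arrdc3 has 3 windows and holds ACGTG in the third alone. The windows were not matched to the 7 genes in base composition or expression, so these shares do not test enrichment. The motifs are matches of letters, and binding was not measured here.

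**Figure D4:**
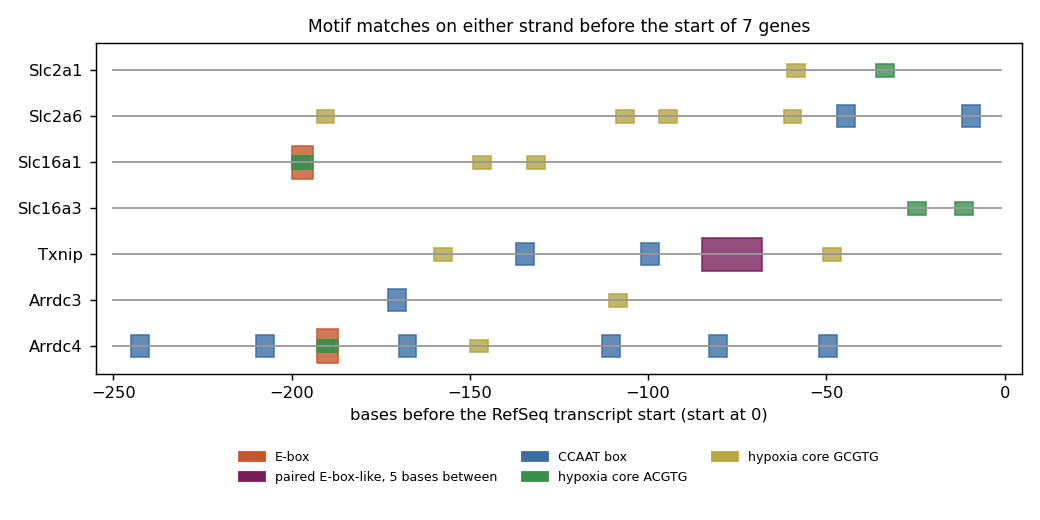
Position of each motif match, on either strand, in the 250 bases before the RefSeq start of 7 genes (the first window where a gene has several). Txnip alone shows the paired element in the spelling searched, at -85 to -69, and Arrdc4 shows 6 CCAAT boxes.

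The wider families of the pathway were described from lists, with the number called read against the background of 31.0%. DESeq2 gave Slc16a8 no adjusted p and, in the same directions, did not call Slc2a12, Slc16a11, Mpc2, Max, Mga, Mxi1, Myc, Wwp1, Snx27, Vps26a, Akt1, Prkaa1 or Cab39 of the genes named below (adjusted p = 0.0708 to 0.427). Of 12 SLC2 genes, 8 were too low to test, 5 of these at 0 in all libraries, and of the 4 tested 1 was higher and 2 lower. The fourth tested gene, Slc2a12, which encodes GLUT12 and overlaps Tbpl1 by 4 bp, went from 51.0 ± 5.04 to 34.4 ± 2.34 CPM (SD; n = 2 per genotype; log2 fold change -0.56, edgeR's adjusted p = 0.0384). Its call was lost without WT replicate 2 (-0.45), LDHA-KO replicate 1 (-0.48) or LDHA-KO replicate 2 (-0.63), and with no filter beyond 1 count in all or a filter of CPM above 1 in at least 2 libraries (the CPM filter; adjusted p = 0.0683 and 0.0594). Slc2a4, the gene of the insulin-regulated carrier GLUT4, was among those at 0.

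Among 20 genes of monocarboxylate and pyruvate transport and their chaperones, 11 were tested, with 4 higher and 1 lower and a median log2 fold change of 0.24. The fall was in Slc16a6, which encodes MCT7, from 109 and 107 counts in WT to 29 and 45 in LDHA-KO (log2 fold change -1.20, SE 0.19, edgeR's adjusted p = 2.01e-06). Both LDHA-KO libraries were far below WT; Slc16a6 overlaps Arsg and Gm45916. Besides Bsg, the rises were Slc16a8, which encodes MCT3, from 5 and 3 to 15 and 11 counts (2.01, adjusted p = 0.00313; it overlaps LOC115488490 by 138 bp), Slc16a11, from 7 and 7 to 16 and 17 counts (1.57, adjusted p = 0.00399), and Mpc2, a subunit of the mitochondrial pyruvate carrier, from 17.9 ± 1.78 to 32.8 ± 1.57 CPM (0.87, adjusted p = 0.0115), all by edgeR. These 3 rest on few counts. Slc16a8 lost its call without WT replicate 2 (1.72) or LDHA-KO replicate 1 (1.62), and Slc16a11 without LDHA-KO replicate 1 (1.45). Mpc2 lost it without WT replicate 2 (0.77), LDHA-KO replicate 1 (0.83) or LDHA-KO replicate 2 (0.93).

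Of the 6 alpha-arrestin genes, 4 were tested, with 2 higher, Txnip and Arrdc4, and 0 lower. In the MLX and MAX network, 3 of 10 tested genes were higher and 3 lower, with a median of -0.15. Mnt, a repressor that pairs with MAX or MLX, fell most, from 103 ± 5.31 to 34.9 ± 14.2 CPM (SD; n = 2 per genotype; log2 fold change -1.51, edgeR's adjusted p = 2.44e-08). The MAX-binding genes Mga (-0.83, adjusted p = 0.00103) and Mxi1 (-0.59, adjusted p = 0.0182) were lower and Max was higher (0.63, adjusted p = 0.000721), by edgeR. Mga lost its call without LDHA-KO replicate 2 (-0.52), and Mxi1 without WT replicate 1 (-0.45) or LDHA-KO replicate 1 (-0.47); they overlap Gm13998 and Gm30541. The other higher genes, named after their values were seen, were Mxd3 (0.29, adjusted p = 0.000874) and Myc (0.23, adjusted p = 0.0283), by edgeR. Myc lost its call without WT replicate 1 (0.20) or LDHA-KO replicate 2 (0.064), with library totals alone (0.15, adjusted p = 0.175) and with the CPM filter (adjusted p = 0.0655). Mxd3 overlaps Prelid1 by 103 bp. The glucose sensors themselves, named after their values were seen, were not called: Mlxip had a log2 fold change of 0.21 (95% interval -0.20 to 0.63) and Mlx, which overlaps Psmc3ip by 67 bp, of -0.18 (-0.70 to 0.34), and Mlxipl had 1 count in all.

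Partners of the arrestins are read beside the 31.0% of all tested genes that were called. With so few tested, their share does not set them apart from that background, and an uncalled gene may still have changed. Of 6 tested ubiquitin ligase genes of the NEDD4 family, which alpha-arrestins recruit to their cargo, 0 were higher and 1 was lower, Wwp1 (-0.89, edgeR's adjusted p = 0.00195; -0.66 and not called without LDHA-KO replicate 1; it overlaps Gm42259). Of 4 tested thioredoxin system genes, 1 was higher: Txn2, which encodes mitochondrial thioredoxin, rose from 37.0 ± 1.41 to 80.0 ± 13.9 CPM (SD; n = 2 per genotype; log2 fold change 1.13, edgeR's adjusted p = 6.86e-06). Cytosolic thioredoxin (Txn1), the partner that TXNIP binds, named after its values were seen, had a log2 fold change of 0.025 (95% interval -0.26 to 0.31).

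The steps that trap and route glucose after entry held 4 higher and 0 lower of 9 tested genes, with a median of 0.49. Gys1, which encodes glycogen synthase, rose from 27.2 ± 3.77 to 68.1 ± 13.2 CPM (SD; n = 2 per genotype; log2 fold change 1.34, edgeR's adjusted p = 2.01e-06). Pgm1, a phosphoglucomutase gene of the same route, had 0.87, the isomerase gene Gpi1 had 0.85 and hexokinase 1 (Hk1) had 0.49, at edgeR's adjusted p = 4.39e-05, 1.20e-10 and 8.15e-06. Gys1 overlaps Ruvbl2, Hk1 overlaps Hk1os and Pgm1 overlaps BC062258, so their counts are uncertain.

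Of 18 tested genes of glucose transporter traffic, 2 were higher and 3 lower, with a median of 0.0008. Tbc1d4 encodes AS160, a brake on the delivery of GLUT4 to the surface, and had 3 and 4 counts in WT against 22 and 33 in LDHA-KO (log2 fold change 3.27, SE 0.44, edgeR's adjusted p = 8.67e-08; it overlaps the pseudogene Gm34417). Snx27, which encodes the sorting nexin that returns GLUT1 from endosomes to the surface, fell by 0.90 (SE 0.20, edgeR's adjusted p = 0.000631), from 64.4 ± 10.6 to 34.4 ± 2.34 CPM (SD, n = 2 each). Vps26a, a retromer subunit gene, was lower (-1.20, adjusted p = 0.0238) but not without WT replicate 1 (-0.84) or LDHA-KO replicate 1 (-0.66), nor with the CPM filter (adjusted p = 0.0513), while without LDHA-KO replicate 2 its value was -2.39. Akt1 was lower (-0.45, adjusted p = 0.00500) but likewise lost its call without WT replicate 1 (-0.38) or LDHA-KO replicate 1 (-0.38), both by edgeR; it overlaps Gm30150 and Mir6939. The other higher gene, Vps26b, named after its values were seen, went from 434 to 541 CPM (0.32, SE 0.073, edgeR's adjusted p = 0.000702); it overlaps Thyn1, with 59 to 78 counts per library, by 2835 bp.

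The list of AMP-activated kinase genes, whose product phosphorylates TXNIP and marks it for degradation, held 0 higher and 2 lower of 8 tested. These were the catalytic subunit gene Prkaa1 (-0.81, adjusted p = 0.0414) and Cab39 (-0.36, adjusted p = 0.00734), by edgeR. Prkaa1 lost its call without WT replicate 1 (-0.72), WT replicate 2 (-0.89) or LDHA-KO replicate 2 (-0.43), and with no filter or the CPM filter (adjusted p = 0.0537 and 0.0676), and Cab39 without WT replicate 2 (-0.21) or LDHA-KO replicate 2 (-0.25). Of the list of lactate dehydrogenases and lactate receptors, 3 were tested and 2 were lower. Besides Ldha this was Gpr132, a receptor gene whose product is reported to sense lactate and acid, from 125 ± 8.95 to 73.2 ± 6.03 CPM (SD; n = 2 per genotype; log2 fold change -0.76, edgeR's adjusted p = 5.34e-05; it overlaps Gm30461). Hcar1, the gene of the lactate receptor GPR81, was at 0 in all libraries.

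**Figure D5:**
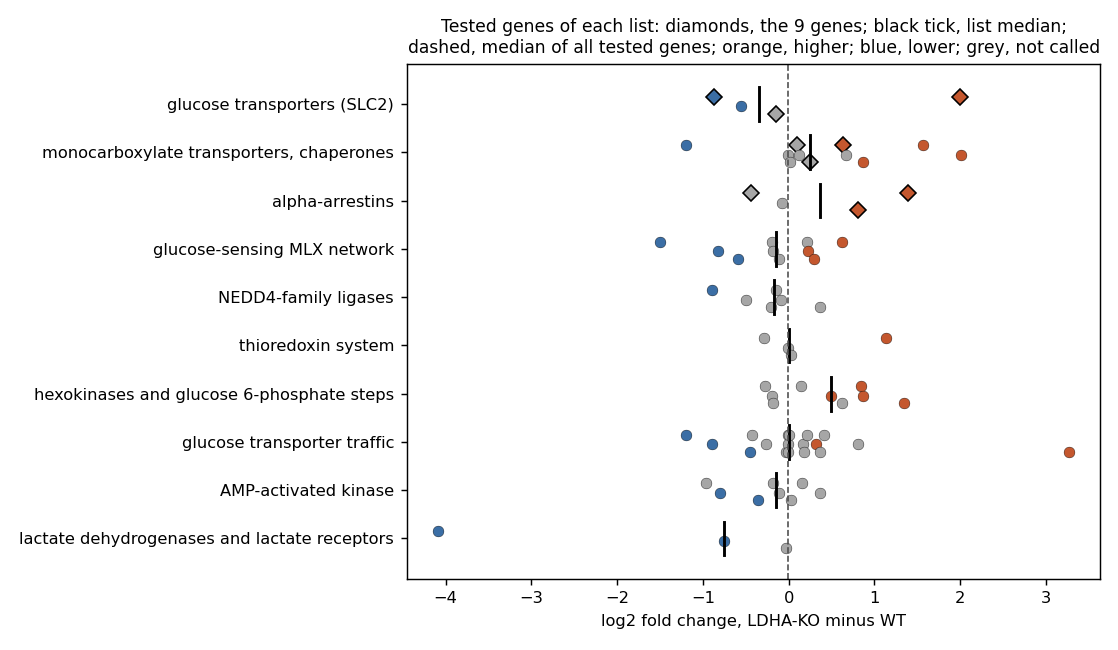
Log2 fold change, LDHA-KO minus WT, of each tested gene of the 10 lists, with list medians (black ticks) and the median of all tested genes (dashed line). Orange genes were called higher and blue genes lower; Tbc1d4 (3.27) lies farthest to the right and Ldha (-4.09) farthest to the left.

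The genes with the pattern nearest to Slc2a3, the largest riser of the 9, were Tanc2, Vmn2r97 and Egr2. Likeness was the Euclidean distance of log2 CPM, centred per gene, over the 4 libraries, and was 0.121, 0.123 and 0.127. Of these only Egr2, the gene of an early response transcription factor, was as deeply counted as Slc2a3, with 38 and 50 counts in WT against 117 and 135 in LDHA-KO. Nearest to Slc2a6 were Ppa2, Pafah1b2 and Gm17529, at distances of 0.0268, 0.0373 and 0.0409. With 4 libraries in 2 groups, such distances mostly restate the difference between genotypes.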

How the data were processed

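RNA was analysed from 2 WT and 2 LDHA-KO libraries. The values are the counts of reads per Ensembl gene ID that the authors deposited as 1 table, not normalised. The submitters' processing notes name, without roles, HTSeq 0.6.0, STAR 2.3.0e, Trimmomatic 0.33, Bowtie2 2.2.6 and FastQC 0.11.2, and the build mm10 (GRCm38). How strand and multiply mapped reads were handled, and the annotation release, is not given in the sources used here. The 4195 extra rows of 1557 repeated IDs were identical and were removed. Columns name genotype and number but no assay and were taken as the RNA libraries. Symbols came from an Ensembl table (37607 of 39179 IDs), positions and overlaps from RefSeq on GRCm38.p6, by symbol.

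Genes were tested with edgeR 4.0.16 in R 4.3.3 (quasi-likelihood F-test, TMM scaling, default filter with minimum count 10 and total 15, genotype as the single factor, Benjamini-Hochberg adjustment over all genes), checked on simulated data. The simulated spread beyond counting error was set close to that fitted to these libraries (dispersion 0.0016). The check thus does not cover larger variation, such as between animals. Alternatives were DESeq2 1.42.0, other scalings and filters, a replicate block and leaving out each library. The intervals are at 95%. The members and lists were chosen with earlier results of these data known. Of each list, the up to 4 called genes with the largest change are named, with their values; genes named outside this rule are marked. Levels per transcript length were not computed, since transcript lengths were not used here.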

Additional observations from a re-analysis of the deposited data

How the results depend on the processing

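Slc2a3 (1.82 to 2.19 on the log2 scale) and Bsg (0.55 to 0.70) kept direction and call in all 10 alternatives, as did Gm15441 (0.62 to 0.77). Arrdc3 reversed without WT replicate 1 and Slc16a1 without LDHA-KO replicate 2, in a range of -0.88 to 0.23 and of -0.024 to 0.20 when 1 library was left out; neither was called in any alternative. Leaving out 1 library left 2 to 4 of the 9 genes called and 1973 to 2412 of all genes, where 5 and 3076 were called with all; such fits have fewer samples. DESeq2 called 2 of the 9, Slc2a3 and Bsg, and 1048 genes in all. For Txnip, Slc2a6 and Bsg its log2 fold changes were 0.81, -0.86 and 0.64, against 0.81, -0.87 and 0.63 in edgeR. Its SEs were larger, at 0.37, 0.42 and 0.12 against 0.21, 0.24 and 0.075. The cause was not tested. With library totals alone the median of all genes moved by -0.083 and 5 of the 9 genes were still called, while 1170 genes were higher and 1886 lower. Of 28 other genes named from the lists or for an overlap, 13 kept their call in every alternative that gave a p, 15 lost it in at least 1, and 0 reversed. Samples with the same replicate number did not deviate together (r = -0.035 across 5746 genes, which are not replicates). Counting error makes up much of such deviations, so this value cannot exclude pairing. The libraries were treated as unpaired, with a replicate block as the alternative. The replicate block called 2803 genes and 4 of the 9, with Arrdc4 lost (1.37, adjusted p = 0.05 after rounding), and with it Vps26a (-1.19) and Prkaa1 (-0.78). Levels per kb, and with them the choice of transcript length, were not run. At about 1 CPM per count, changes in genes of under 20 counts, such as Arrdc3 and Arrdc4, are poorly resolved.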
